A study of Mus musculus with 6 samples.

Results

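The 10 genes described here belong to bone morphogenetic protein (BMP) signalling or are Id genes: the ligand Bmp4, the protease Bmp1, the receptor Bmpr1a, the decoy receptor Bambi, the transcription factors Smad1 and Smad5, their inhibitor Smad6, and the target genes Id1, Id2 and Id3. They were chosen by name, with earlier results of these data known. Every array probe whose platform annotation gives one of these symbols was taken, which made 23 probes, and all 10 genes had at least 1. The array names 19057 genes in all. Of the 10, 8 had a probe above background on at least 3 of the 6 arrays and were tested among 9736 genes, while Smad6 and Bambi had none.

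The samples were mouse embryonic stem (ES) cells, 6 bead arrays of total RNA. Both groups grew on mitomycin C-treated fibroblast feeder cells in medium with foetal bovine serum and the cytokine LIF, were electroporated with a pHYPER vector and were selected with puromycin. The 3 control samples were labelled as the control transfection of the Ep400 experiment, and the label does not say what the control vector carried. The 3 shEp400 samples received a shRNA against Ep400, the ATPase of the Tip60-p400 chromatin remodelling complex. The labels name neither the ES cell line nor the shRNA sequence. They also do not say whether replicates were independent cultures, and the p-values therefore reflect the spread between these arrays, which may be technical.

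BMP ligands bind a pair of type I and type II receptor kinases at the cell surface. The activated type I receptor, such as Bmpr1a, phosphorylates Smad1 and Smad5, which enter the nucleus with Smad4 and switch on target genes, the Id genes foremost. Id proteins hold a helix-loop-helix domain without a DNA-binding region and keep E proteins and other helix-loop-helix factors off DNA. In mouse ES cells grown with LIF, BMP signals from serum or added BMP4 help to hold back neural differentiation through Id genes.

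All arrays lay on one slide by their labels, and each group filled its own run of adjacent positions, which means that slide position and group cannot be told apart. Detected probes (detection p under 0.01) numbered 15441 to 16096 on control and 16152 to 17337 on shEp400 arrays. The targeted gene Ep400 read 9.72, 9.58 and 9.56 on control arrays and 8.88, 9.11 and 9.14 on shEp400 arrays (normalized log2 signal), a log2 change of -0.58 with SE 0.16 (limma adjusted p = 0.0159). Cyclic loess normalization raised its adjusted p to 0.0631, and leaving out control replicate 1 raised it to 0.0611. Markers of the cells in the culture moved as well. Among feeder fibroblast markers 19 of 22 tested (28 listed) rose with 0 falling, and 1 of these 22 was detected on no control array. No array held feeder cells alone, so whether other cells in the culture express these markers was not tested. Among ES cell markers 5 of 10 fell with 0 rising. Over all genes tested, 20.6% were called higher and 23.1% lower (limma adjusted p under 0.05).

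Promoter windows of Id2 and Id3, which rose, and of Bmp4, which fell, are shown because these are the called members that the RefSeq promoter table (GRCm38.p6) holds. It matched 7 of the 10 members by symbol, in 9 windows. Each window is the 250 bases before the annotated start, 5′ to 3′ on the gene's strand. Capitals mark GGCGCC, the GC-rich motif bound by Smad1 and Smad5 and its own reverse complement, and GTCT or its reverse complement AGAC, the SMAD box. The motifs cannot overlap each other. The windows lie at chr12:25096093-25096342 (minus strand) for Id2, chr4:136143572-136143821 (plus strand) for Id3 and chr14:46390670-46390919 (minus strand) for Bmp4.
Id2: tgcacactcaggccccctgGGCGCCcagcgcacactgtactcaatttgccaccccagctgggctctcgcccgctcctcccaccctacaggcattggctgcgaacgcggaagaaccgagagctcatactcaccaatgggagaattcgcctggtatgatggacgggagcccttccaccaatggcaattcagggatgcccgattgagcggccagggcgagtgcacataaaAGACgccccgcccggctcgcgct
Id3: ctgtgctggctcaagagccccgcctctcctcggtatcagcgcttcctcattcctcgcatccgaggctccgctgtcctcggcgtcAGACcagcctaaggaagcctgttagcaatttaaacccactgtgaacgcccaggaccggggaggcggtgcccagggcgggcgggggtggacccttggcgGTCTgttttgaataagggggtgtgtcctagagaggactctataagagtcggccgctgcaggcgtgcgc
Bmp4: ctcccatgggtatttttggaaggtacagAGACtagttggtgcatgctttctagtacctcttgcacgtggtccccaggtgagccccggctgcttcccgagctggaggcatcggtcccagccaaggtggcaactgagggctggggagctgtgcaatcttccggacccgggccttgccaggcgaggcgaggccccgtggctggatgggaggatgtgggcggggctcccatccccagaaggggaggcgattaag

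GGCGCC occurred 1 time in the Id2 window, with its first base at -231 relative to the annotated start, and 0 times in the windows of Id3 and Bmp4. Over the 9 member windows it was present in 3, those of Id2, Bmpr1a and 1 of 3 overlapping or neighbouring Smad5 starts. It was present in 9.59% of all 32851 promoter windows of this length. The SMAD box occurred 1 time in the Id2 window, 2 times in that of Id3 and 1 time in that of Bmp4, and in 82.9% of all windows. These are letter matches within a short window, and binding was not measured.

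Of the 8 tested members, 4 rose (Bmp1, Id1, Id2 and Id3), 1 fell (Bmp4) and 3 did not pass the test (Smad1, Smad5 and Bmpr1a). Id1 and Id3 thus rose, beside a change in the opposite direction of the ligand Bmp4 that was small and depended on the settings. Id2 was detected on 0 control and 3 shEp400 arrays. It entered the test only through the group where it was high, so its call does not stand as separate support. The same holds for its place among the 4 rises. Over all genes tested 43.7% were called, 20.6% higher and 23.1% lower. The groups' values did not overlap for 6 of the 8 members, and for 55.5% of all genes. The median log2 change was 0.77 over the tested members and -0.06 over all genes. Because the members were chosen with earlier results of these data known, these shares and medians are a description only. At the level of single probes, 15 of 23 passed the detection filter, of which 7 were higher, 0 lower and 8 not called. Of all 14238 named probes that passed, 18.8% were higher. The 7 higher probes were 3 of Bmp1, 2 of Id2 (both detected on no control array), 1 of Id1 and 1 of Id3. The 8 probes left out were detected on 0 to 2 arrays.

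**Figure D1:**
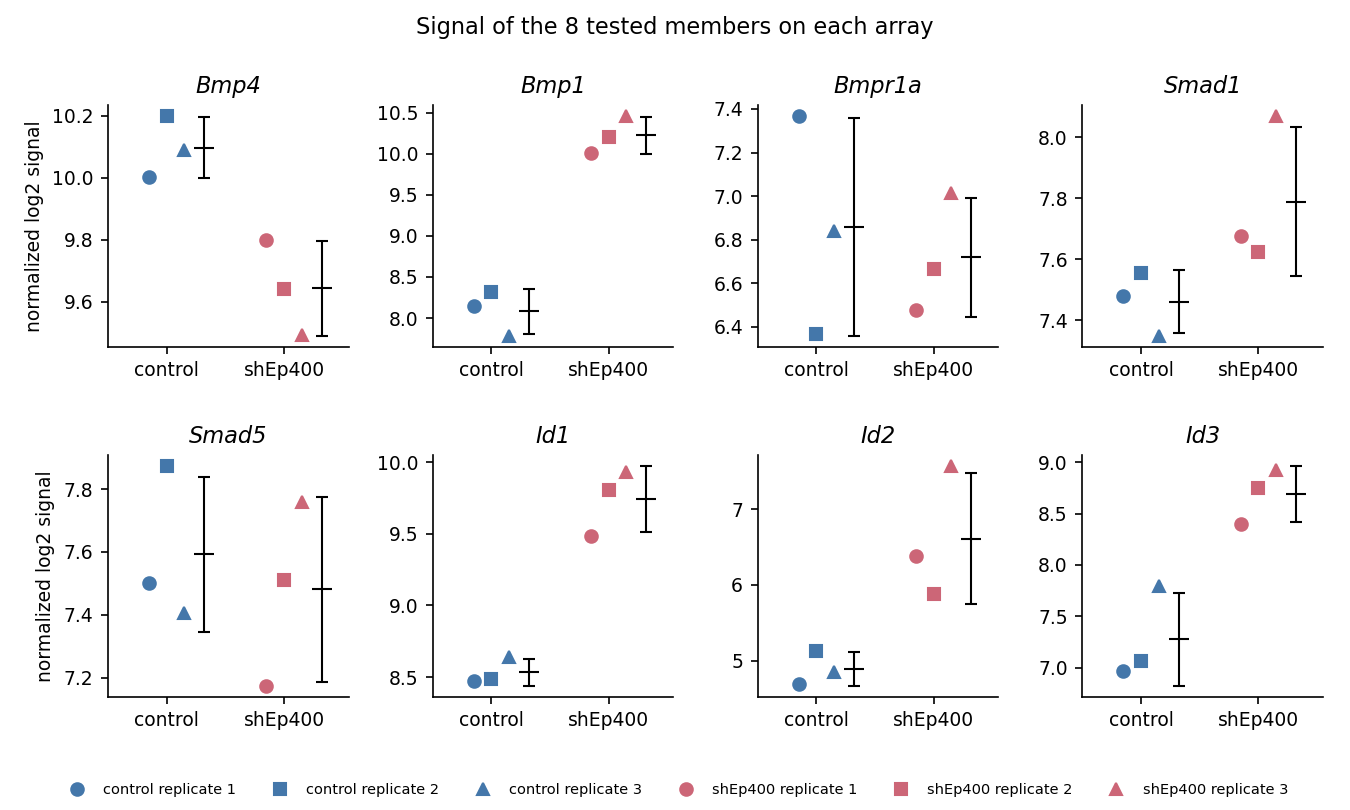
Normalized log2 signal (y axis, a separate range for each gene) of the 8 tested members on each of the 3 control (blue) and 3 shEp400 (red) arrays, with the mean and SD beside the points. The shEp400 values lie above all control values for Bmp1, Id1, Id2, Id3 and Smad1 and below them for Bmp4, while those of Smad5 and Bmpr1a overlap.

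Among the ligands and their processing, Bmp4 encodes the BMP ligand that ES cells themselves produce and that signals through Bmpr1a. Its brighter probe gave deposited signals of 906, 1183 and 1227 on control arrays 1, 2 and 3 and of 991, 847 and 1054 on shEp400 arrays 1, 2 and 3. Before scaling between arrays these values overlapped. After normalization the log2 signals were 10.002, 10.20 and 10.09 in control and 9.80, 9.64 and 9.49 in shEp400, so that the groups separated. The log2 change was -0.45 (SE 0.16, 95% interval -0.82 to -0.09, limma adjusted p = 0.0467), a 1.37-fold fall. The call rested close to the threshold. It was lost in 8 of 15 other settings, with cyclic loess among them (log2 change -0.29, adjusted p = 0.161), and it held with 1 array omitted only where that was shEp400 replicate 1. Omitting control replicate 1, 2 or 3 gave adjusted p of 0.0787, 0.145 and 0.0935, and omitting shEp400 replicate 2 or 3 gave 0.118 and 0.0949. In the fit over single probes the same probe did not pass (adjusted p = 0.0544). The dimmer Bmp4 probe gave 5.37, 5.97 and 6.29 in control and 5.59, 5.54 and 5.21 in shEp400 on the log2 scale, which overlap, and a log2 change of -0.43 (SE 0.24, adjusted p = 0.178). The value was below 0 in each of the 15 settings, from -0.61 to -0.29.

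Bmp1, despite its name, is not a BMP ligand but a secreted metalloprotease that trims procollagens and cleaves the BMP antagonist chordin. The probe with the highest mean had deposited signals of 304, 377 and 306 in control against 1128, 1195 and 1872 in shEp400. The normalized log2 signals were 8.14, 8.31 and 7.79 in control and 10.01, 10.20 and 10.46 in shEp400. Every shEp400 array lay well above every control array. Bmp1 rose 4.41-fold (log2 change 2.14, SE 0.20, 95% interval 1.70 to 2.58, limma adjusted p = 6.98e-05), and the call held in each of the 15 other settings, with log2 changes of 1.78 to 2.29.

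Of its 5 probes, 3 were detected on all 6 arrays, and the rest were above background on 0 arrays. The remaining detected probes rose 5.72-fold (log2 change 2.52, SE 0.21) and 4.61-fold (2.21, SE 0.17), with limma adjusted p over all probes of 3.7e-05 and 3.38e-05. Summed over the 22 tested genes, feeder fibroblast markers gave a linear normalized signal of 8071 to 9585 on control arrays and of 36558 to 53767 on shEp400 arrays. The collagen gene Col1a1, whose product Bmp1 trims, rose 7.64-fold. For Pcolce, the enhancer of that cleavage, named after its values were seen, limma gave a log2 change of 0.07 with SE 0.21 and adjusted p = 0.812. In bulk samples, a change in the share of cells of a type and a change in RNA per cell cannot be told apart. The part of feeder cells in the members' changes was not tested.

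Bmpr1a is the type I receptor through which BMP4 signals in ES cells. Its brighter probe gave log2 signals of 7.37, 6.37 and 6.84 in control and 6.48, 6.66 and 7.02 in shEp400. The groups overlapped, and the control arrays were the more spread. The log2 change was -0.14 (SE 0.26, 95% interval -0.71 to 0.43, limma adjusted p = 0.687), and its sign turned in 2 of the 15 other settings. The second probe was tighter, at 6.53, 6.64 and 6.76 in control and 6.35, 6.20 and 6.14 in shEp400. These groups did not overlap, and the log2 change (-0.41, SE 0.17, adjusted p = 0.0713 over all probes) did not pass.

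Smad1 and Smad5 are the receptor-activated SMADs of the BMP branch. The brightest Smad1 probe gave log2 signals of 7.48, 7.55 and 7.35 in control and 7.68, 7.62 and 8.07 in shEp400. All shEp400 values lay above control, though 2 of them by little. The log2 change of 0.33 (SE 0.18, 95% interval -0.07 to 0.73, limma adjusted p = 0.162) did not pass, and passed only with cyclic loess (0.49, adjusted p = 0.0484) among the 15 settings. The second detected Smad1 probe overlapped between groups (0.07, SE 0.23, adjusted p = 0.819), and the other 3 probes were above background on at most 1 array.

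For Smad5, the brighter probe gave 7.50, 7.87 and 7.41 in control and 7.18, 7.51 and 7.76 in shEp400 on the log2 scale. These values overlapped, and the log2 change of -0.11 (SE 0.21, 95% interval -0.57 to 0.35, limma adjusted p = 0.687) changed sign in 3 of the 15 settings. The second probe read lower in every shEp400 array, with 6.17, 6.20 and 6.17 in control and 6.03, 5.74 and 5.55 in shEp400. Its change of -0.41 (SE 0.18, adjusted p = 0.0931 over all probes) did not pass. For Bmpr1a, Smad1 and Smad5 the intervals thus span 0, and they reach 0.73 upward for Smad1 and 0.71 downward for Bmpr1a on the log2 scale.

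Smad6, which blocks the activated BMP receptors, and Bambi, a receptor-like protein without a kinase that dampens BMP and TGF-beta signals, are themselves induced by BMP in many cells. The Smad6 probe gave deposited signals of 114, 123 and 127 in control and 120, 119 and 145 in shEp400, above background on 1 array of each group. The Bambi probe gave 114, 115 and 116 in control and 113, 105 and 117 in shEp400, above background on 1 control array. Both were close to the background of the array, and no change is given for either.

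**Figure D2:**
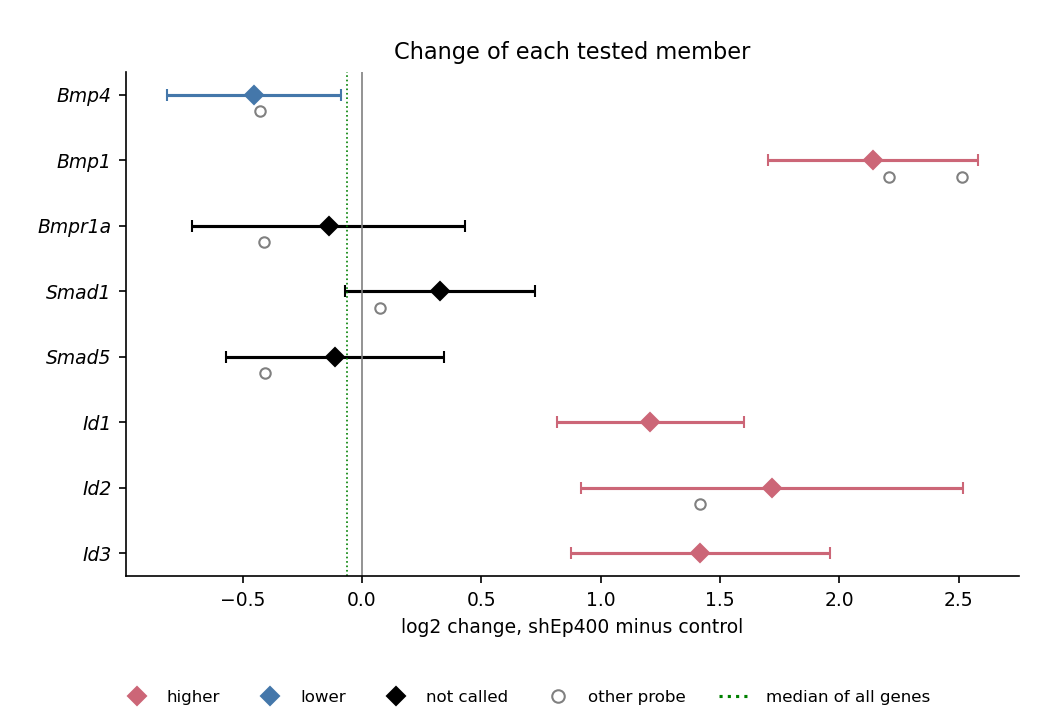
Log2 change (x axis, shEp400 minus control) of the 8 tested members, with the 95% interval for the probe that represents the gene (diamonds, red higher, blue lower, black not called), the median of all genes (dotted line) and the change of each other detected probe (open circles). Bmp1 and the Id genes lie above 0 with their whole interval, Bmp4 lies just below 0, and the intervals of Bmpr1a, Smad1 and Smad5 span 0. The Id2 diamond is a fitted change against control values below background.

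Id1, Id2 and Id3 are the immediate targets of the SMAD branch. Id1 has 1 probe, with deposited signals of 360, 414 and 491 in control and of 827, 928 and 1373 in shEp400. In normalized log2 signal these were 8.47, 8.48 and 8.64 in control and 9.49, 9.80 and 9.93 in shEp400. The control arrays lay close together, and every shEp400 array was above them. Id1 rose 2.31-fold (log2 change 1.21, SE 0.18, 95% interval 0.82 to 1.60, limma adjusted p = 0.000578). The call held in each of the 15 settings, with log2 changes of 1.01 to 1.36 and adjusted p up to 0.00438.

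Id3 also has 1 probe, with deposited signals of 180, 211 and 307 in control and of 440, 502 and 751 in shEp400. Its normalized log2 signals were 6.97, 7.06 and 7.79 in control and 8.39, 8.75 and 8.93 in shEp400. Control replicate 3 was the highest of the controls but below the lowest shEp400 array. Id3 rose 2.67-fold (log2 change 1.42, SE 0.24, 95% interval 0.88 to 1.96, limma adjusted p = 0.00141), and the call held in each of the 15 settings, with log2 changes of 0.98 to 1.66.

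Id2 was near background in control. Its representing probe gave deposited signals of 106, 129 and 126 in control and of 180, 144 and 359 in shEp400, and was above background on 0 control and 3 shEp400 arrays. The log2 signals were 4.69, 5.13 and 4.86 in control and 6.39, 5.88 and 7.57 in shEp400. The shEp400 arrays were all higher and spread widely, with replicate 3 the highest. By this probe, on the means of the main normalization, Id2 was at least 2.77-fold higher. The fitted change had adjusted p = 0.00384 by limma. This limit compares the shEp400 mean with a control mean in which each array counts as no lower than its dimmest detected probe. Like the limit given next for a second probe, it carries no sampling error. A second Id2 probe, likewise detected on 0 control and 3 shEp400 arrays, was tighter, with 4.84, 4.64 and 4.78 in control and 6.13, 6.13 and 6.24 in shEp400, at least 2.03-fold higher (adjusted p = 0.000164 over all probes). The third Id2 probe was above background on 1 array of each group and overlapped.

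The size of the Id2 change depended on how background was removed. Its log2 change was 0.63 without background correction (adjusted p = 0.0203), 0.93 with normexp without negative controls (adjusted p = 0.0048) and 0.69 in the authors' processed matrix (adjusted p = 0.0147), against a fitted 1.72. The limit of 2.77-fold thus holds for the representing probe and the main background correction only. Without any 1 of the shEp400 arrays, or with detection asked for on all 6 arrays, Id2 fell below the detection filter and was not tested. Id2 was the only member whose fold moved by over 1.5 times in any of the 15 settings.

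**Figure D3:**
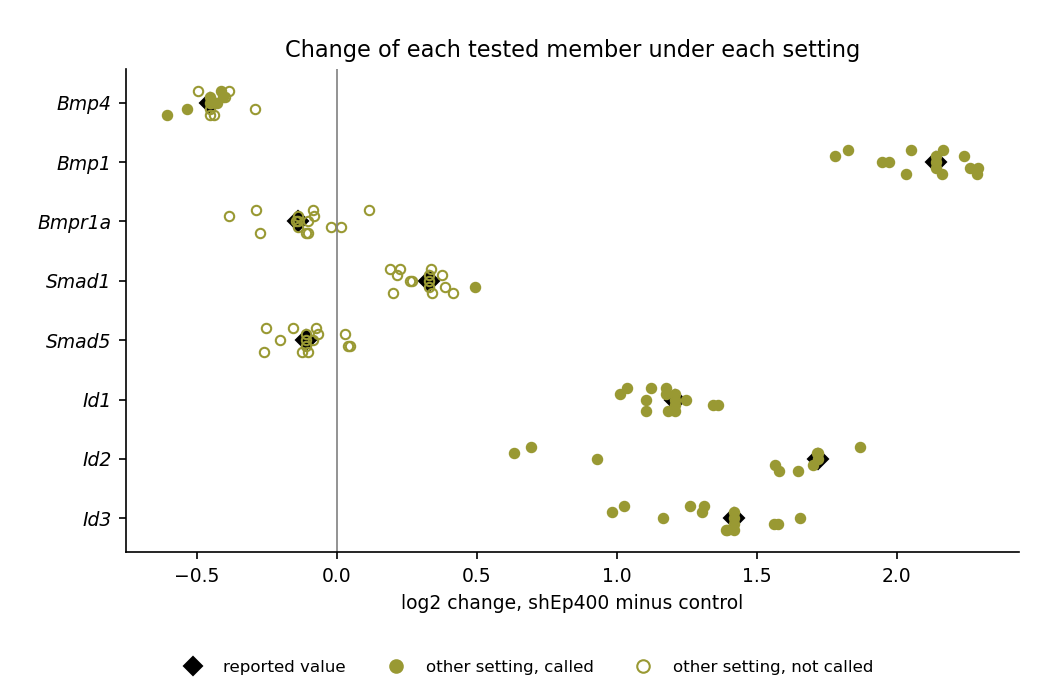
Log2 change (x axis) of the 8 tested members as reported (black diamonds) and under each other setting that tested them (circles, filled where the call passed). Bmp1, Id1, Id2 and Id3 stay above 0 and called in every setting that tested them, Bmp4 stays below 0 with the call lost in 8 of 15, and Smad5 and Bmpr1a lie on both sides of 0. Settings that left out a shEp400 array, or asked for detection on all 6 arrays, did not test Id2. It passed the main detection filter only through the shEp400 arrays.

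The shEp400 arrays were not alike. By the probe that represents each gene, replicate 3 had the highest value of the 3 for Id1, Id2, Id3, Bmp1, Smad1, Smad5 and Bmpr1a and the lowest for Bmp4. Other detected probes differed in this: replicate 3 was the lowest on the second probes of Smad5 and Bmpr1a, and replicate 2 was the highest on the second Smad1 probe and on 1 of the other Bmp1 probes. On the same array the summed feeder marker signal was highest, at 53767 against 36558 and 52513 on replicates 1 and 2, and the summed ES cell marker signal was lowest, at 45013 against 60296 and 50680. The control arrays gave 64727 to 68098 for the ES cell markers. Dppa5a and Esrrb, the brightest of these 10 genes and named for that after their values were seen, made up 78.3% to 81.4% of the sum on each array. The other 8 summed to 13690 to 14779 on control arrays and to 11543, 9968 and 8387 on shEp400 arrays 1, 2 and 3, which kept the same array lowest. Sox2, a core pluripotency factor, fell 3.03-fold (log2 change -1.60, SE 0.28, and -1.01 without background correction). Its second detected probe fell less, with a log2 change of -0.84. Pou5f1, which encodes Oct4, did not pass, with a log2 change of -0.49, SE 0.23 and limma adjusted p = 0.112. Lox, which cross-links collagen, rose 8.63-fold and the smooth muscle actin Acta2 8.21-fold. Of the 28 feeder markers, Col3a1, Col5a2, Dpt, Fap, Postn and S100a4, named after their values were seen, did not pass the detection filter. Utf1 and Tdgf1, ES cell genes, fell 3.41-fold and 1.79-fold, and the latter call was lost without control replicate 1 (adjusted p = 0.0533).

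**Figure D4:**
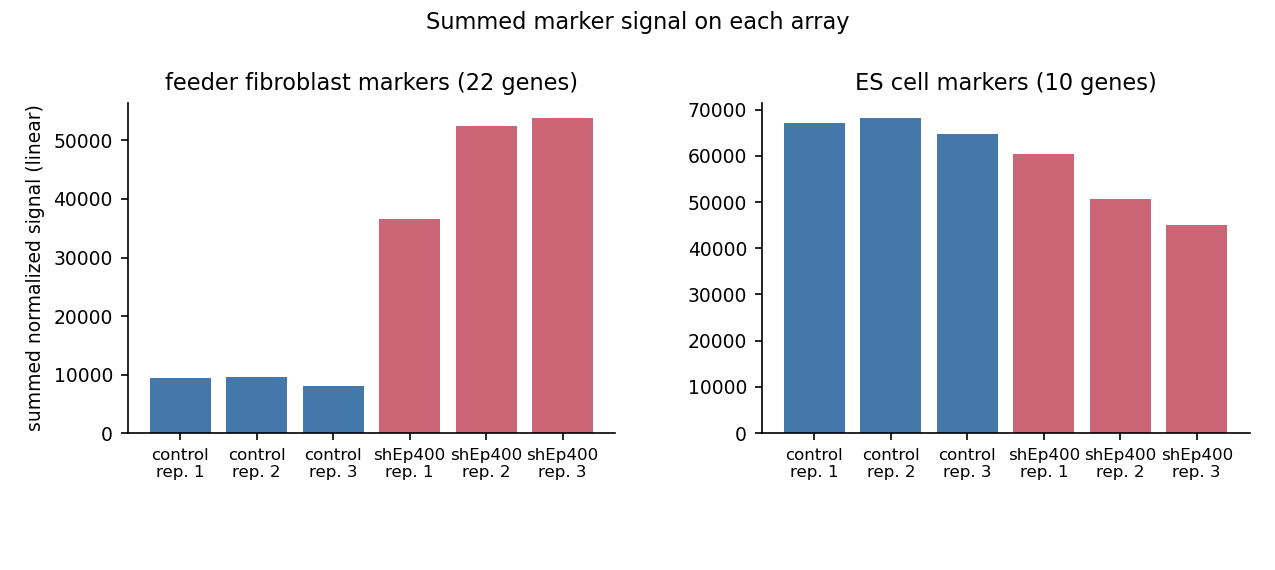
Summed linear normalized signal (y axis, from 0) of 22 feeder fibroblast markers and of 10 ES cell markers on each array. Feeder markers sum to 8071 to 9585 on control and to 36558 to 53767 on shEp400 arrays, and ES cell markers, of which Dppa5a and Esrrb make up most, to 64727 to 68098 and to 45013 to 60296.

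Markers of differentiated lineages that could arise in the culture are given for the same reason. Over all genes tested, 20.6% were called higher and 23.1% lower. Of 5 tested extraembryonic endoderm markers, from a list of 10, 3 rose and 0 fell: Gata6 5.46-fold, Dab2 2.17-fold and Sox17, which was above background on 1 of 3 control arrays and for which the fitted 2.75-fold depends on control values at background. The summed signal of the 5 was 928 to 1164 on control and 1159 to 2249 on shEp400 arrays, and the ranges overlapped. Lama1, named after its values were seen, was the brightest of the 5 on each array and was not called. Its log2 signals were 9.45, 9.68 and 9.34 in control and 9.95, 9.55 and 8.49 in shEp400. The values of Gata6, Dab2 and Sox17 did not overlap between groups, while those of Sox7 and Lama1 did. Of 8 trophectoderm markers only the keratins Krt8, Krt18 and Krt7 were tested, and they rose 2.89-fold, 2.37-fold and, as fitted, 1.91-fold, with a summed signal of 229 to 296 in control and 554 to 969 in shEp400. Krt7 too was above background on 1 of 3 control arrays. The second Sox17 probe rose less than the representing probe, with a log2 change of 0.98. The lineage factors Cdx2, Eomes, Elf5, Hand1 and Gata3, named after their values were seen, did not pass the detection filter. Without background correction the folds were smaller by over 1.5 times for Gata6 (log2 change 1.64, from 2.45), Sox17 (0.49, from 1.46), Krt18 (0.61, from 1.24) and Krt7 (0.27, from 0.93, adjusted p = 0.0562). The part of such cells in the members' changes was not tested.

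Other genes of the BMP pathway were read from the same fit by role. Of 42 tested, 15 rose, 3 fell and 24 did not pass, beside 20.6% higher and 23.1% lower over all genes. Of 9 secreted BMP regulators tested from a list of 20, 5 rose, 0 fell and 4 did not pass. The antagonist Nbl1 rose 5.33-fold, with log2 signals of 6.58, 6.40 and 6.65 in control and 8.25, 9.03 and 9.59 in shEp400 (log2 change 2.41, SE 0.29, limma adjusted p = 0.000218). Grem1, gremlin, which traps BMP2 and BMP4, rose 4.76-fold, from 8.17, 8.04 and 8.45 in control to 9.71, 10.05 and 11.65 in shEp400. Bmper, a chordin-like BMP-binding protein, rose 3.55-fold (log2 change 1.83, SE 0.32). Fstl3 and Fst, follistatin family traps named after their values were seen, were detected on 0 control arrays. They passed the filter only through the shEp400 arrays, so their place among the 5 rises is no separate support. On the means of the main normalization they were at least 2.05-fold and at least 1.80-fold higher, limits that carry no sampling error. For chordin itself, Chrd, the substrate of Bmp1 and also named after its values were seen, the groups overlapped (limma adjusted p = 0.997).

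Of 5 tested receptors and co-receptors, 2 rose, 1 fell and 2 did not pass. The type II receptor Bmpr2 rose 2.88-fold, with log2 signals of 8.24, 8.11 and 7.84 in control and 9.19, 9.43 and 10.14 in shEp400 (log2 change 1.52, SE 0.25, limma adjusted p = 0.00105). The type I receptor Acvr1 rose 1.94-fold (log2 change 0.95, SE 0.23). Acvr2b, a type II receptor shared with activin and Nodal, fell 2.18-fold, from 10.46, 10.49 and 10.17 to 9.63, 9.33 and 8.79. Each of these 3 calls held in all 15 settings. Of 4 tested ligands other than Bmp4, 0 rose and 1 fell: Bmp7, 1.61-fold (log2 change -0.69, SE 0.25, limma adjusted p = 0.0441), a call lost in 9 of the 15 settings. Its adjusted p was 0.117 and 0.126 when control replicate 2 and control replicate 3 were omitted, and 0.0581 and 0.118 when shEp400 replicate 2 and shEp400 replicate 3 were.

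Of 18 tested SMADs and intracellular regulators, 6 rose, 1 fell and 11 did not pass. Pmepa1, a TGF-beta-induced inhibitor of SMAD signalling, rose 5.64-fold (log2 change 2.50, SE 0.31). Its second probe rose less, with a log2 change of 0.75. Zeb2, a SMAD-interacting repressor that 1 control array detected, rose 2.60-fold, and Smad3, of the activin and TGF-beta branch, rose 2.29-fold, from 8.77, 8.65 and 8.41 to 9.50, 9.94 and 9.99. Zfp423, a zinc finger partner of the BMP SMADs, fell 2.23-fold, with a log2 change of -1.16 and limma adjusted p = 0.000844. Of 3 tested BMP target genes that are no members, 2 rose and 0 fell: the homeobox gene Msx1, detected on 2 of 3 control arrays, 2.55-fold, and the haematopoietic regulator Gata2 2.17-fold. Of 3 tested E proteins, which Id proteins bind, limma called 0, and 0 had an unadjusted p under 0.05: Tcf4 had a log2 change of -0.05 (SE 0.19) and Tcf12 of 0.45 (SE 0.32).

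The values of several of these genes depended on the background correction. Without it, the log2 changes were 1.60 for Nbl1, 0.89 for Bmper, 1.68 for Pmepa1, 0.44 for Zeb2, -0.57 for Zfp423, 0.51 for Msx1 and 2.16 for Col1a1, each smaller by over 1.5 times on the fold scale and each still called. With the mean of the kept probes in place of the brightest, Nbl1 changed by 1.80 and Pmepa1 by 1.62. The sums of the feeder markers given above stand beside all of these rises, and the part of feeder cells in them was not tested.

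**Figure D5:**
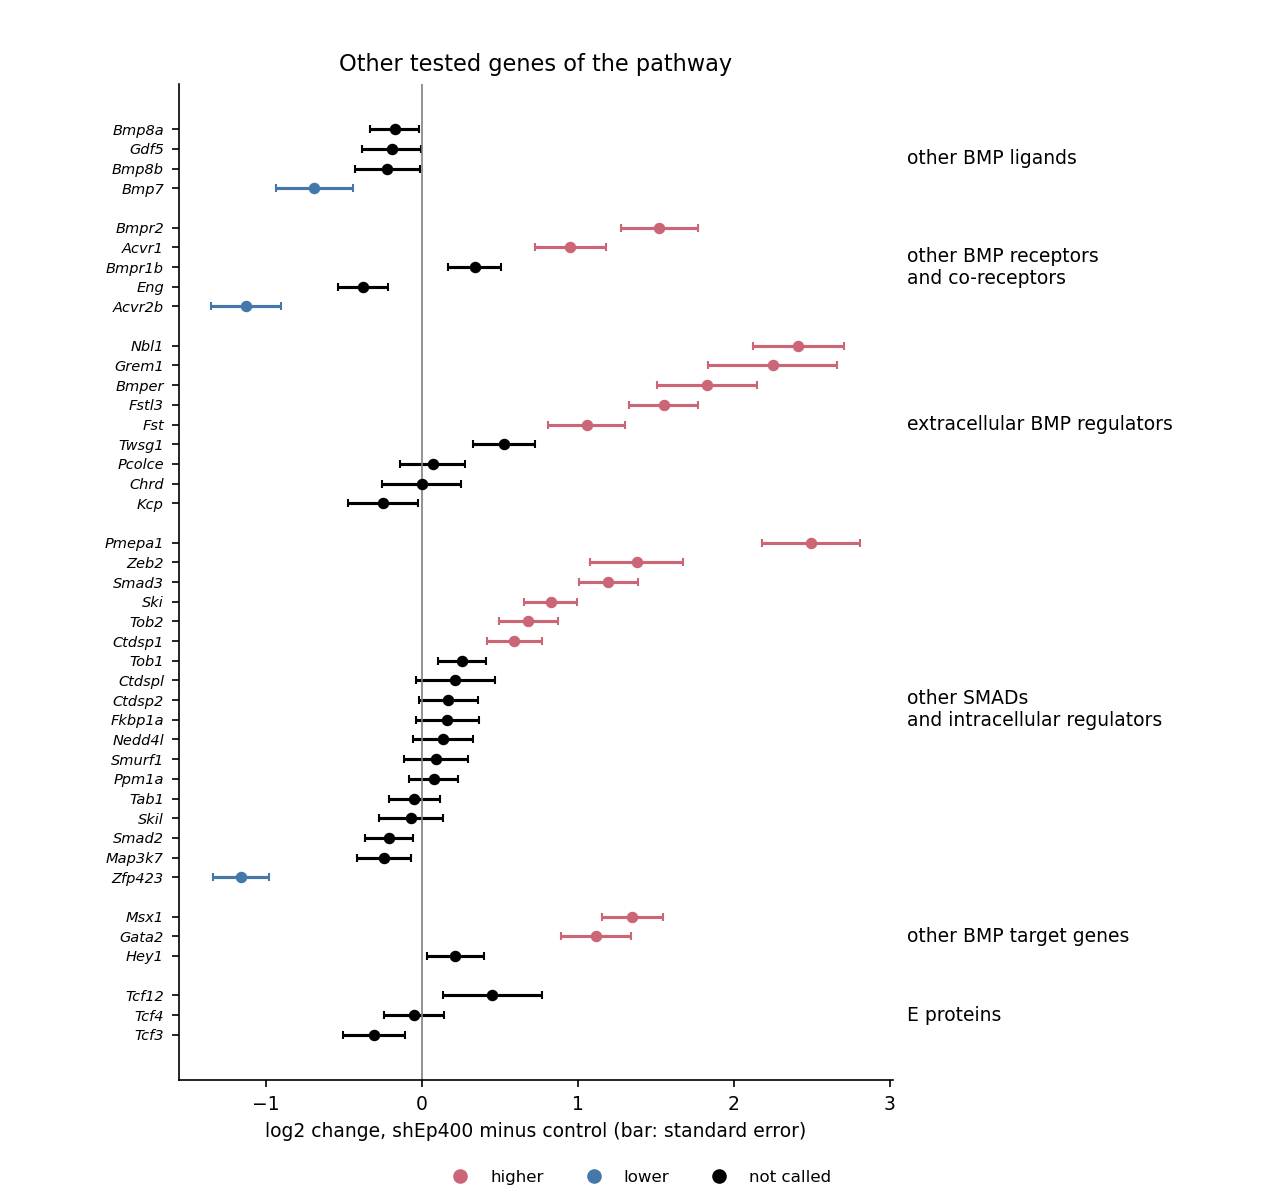
Log2 change (x axis, shEp400 minus control) with its standard error for the 42 tested pathway genes that are no members, grouped by role. In all, 15 genes were higher (red), 3 lower (blue: Bmp7, Acvr2b and Zfp423) and 24 not called (black).

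The genes whose values followed Id1 most closely over the 6 arrays were St3gal3, Sparc, Mocos, Flnc and Amotl1, with Pearson r between 0.99873 and 0.99952 and log2 changes of 1.00 to 2.50. Sparc, a collagen-binding matrix protein, changed by 1.74. For Bmp4 they were Ddx49, Foxred1, Psmb2, Siva1 and Stard5, with r between 0.99672 and 0.9986 and log2 changes of -0.82 to -0.22. These r values are a description over 6 arrays in 2 groups, chosen as the highest among 9736 genes, and the difference between the groups makes up most of each.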

How the data were processed

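Total RNA of 6 samples, 3 control and 3 shEp400, was hybridised to Illumina bead arrays, 1 per sample. The main deposited table gives, per the file headers, an intensity and a detection p-value for each of 45281 probes. Its intensities were not normalized, and the arrays' upper quartiles ran from 141 to 195. The submitters' processing notes name GenomeStudio, with no version. The authors' processed matrix of linear intensities had a median of 114 on every array and served as an alternative. The platform annotation gave 1 symbol to 34885 probes, several to 18, which were left out, and none to 10378. Entrez IDs matched 34807 probes to RefSeq and changed 0 symbols.

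The function neqc of limma 3.58.1, run in R 4.3.3 with an offset of 16, turned the deposited intensities into background-corrected, quantile-normalized log2 values. The filter asked for detection p below 0.01 on 3 or more arrays and left 14238 named probes, and a gene was its kept probe with the highest mean over 6 arrays. lmFit and eBayes compared the groups without covariates, two-sided. Benjamini-Hochberg adjustment was over all 9736 genes (or, for single probes, the 14238 kept named probes), with calls at 0.05. The steps were tested on simulated signals, with changes placed only in bright genes detected on all 6 arrays. Dim genes such as Id2 were not covered by that test. The number of arrays limits the precision.

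The members and gene lists were chosen with earlier results of these data known. Named genes were all members, up to 3 rises and 3 falls per list, or the 2 highest tested genes of a list with no call, 5 genes for checks, and the 5 most alike to Id1 and to Bmp4. In all, 15 other settings were tried, 6 of them leaving out an array.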

Additional observations from a re-analysis of the deposited data

How the results depend on the processing

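The calls of Bmp1, Id1 and Id3 held in each of 15 other settings. That of Id2 held in the 11 that tested it. Id2 passed the main detection filter only through the shEp400 arrays, so this is no separate support. The number of members called, 5 of 8, lay between 4 and 5 under the 9 settings that kept all arrays and between 3 and 4 when 1 array was left out. It was 3 without shEp400 replicate 2 and without shEp400 replicate 3, where Id2 no longer met the filter on detection and Bmp4 did not pass. The number tested also changed: 5 of 10 were called with no filter, 4 of 9 with detection p under 0.05 and 4 of 7 with detection on all 6 arrays. With cyclic loess the 5 held Smad1 in place of Bmp4. Calls over all genes numbered 3000 to 4199 with 1 array left out and 3755 to 4526 otherwise, against 4251 of 9736. They were 3997 of 19057 with no filter and 3755 of 8089 with detection on all 6 arrays. Member probes called numbered 5 to 8 (against 7), feeder markers 17 to 20 (against 19) and other pathway genes 13 to 19 (against 18). The share of called genes that were higher was 47.2%, 59.4% with cyclic loess and 39.1% with 75th percentile scaling. These scalings moved the median of all genes by 0.11 and -0.11 on the log2 scale. Relative to that median, Bmp4 changed by -0.39 as reported, by -0.34 with cyclic loess and by -0.44 with 75th percentile scaling, and Id1 by 1.27, 1.31 and 1.27. Of the members' values under other settings 107 kept their side of the threshold, 8 lost the call (all of Bmp4) and 1 gained it (Smad1). For the other named genes the call was lost 13 times and kept or still missed 402 times. The sign turned 5 times among members (Smad5 and Bmpr1a) and 3 times among the others (Tcf4), all uncalled genes, and 0 times for a called gene. No paired analysis was possible because the labels give no replicate numbers shared by the groups. For dim probes such as those of Id2, Smad6 and Bambi, closeness to background limits what can be measured.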
